A study of Mus musculus and Homo sapiens with 4 samples.

Results

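Chemokines are small secreted proteins that draw leukocytes along a gradient through G-protein-coupled receptors. The 10 chemokine genes described here, Cxcl9, Cxcl10, Ccl5, Cxcl1, Cxcl5, Ccl2, Ccl7, Cxcl16, Cx3cl1 and Cxcl12, were measured in mouse embryonic fibroblasts (MEFs) of wild-type (WT) and NEAT1 knockout (KO) mice. They are 10 of the 23329 entries, 1 per gene symbol, for which RPKM values (read counts scaled by entry length and by the total of mapped reads) were deposited. The genes were chosen by their RPKM values in these same libraries, with the differences between KO and WT already known, so the contrast that chose them is described below and not tested. Both MEF lines came from E13.5 embryos of the C57BL/6 strain, were used at passages 2 to 3 and were grown in DMEM and Ham's F12 with serum and antibiotics. No ligand or other treatment is named for either line. There is 1 poly-A RNA library per genotype, and the labels state neither the number of embryos behind a line nor how the NEAT1 locus was deleted. The series also holds human VCaP prostate cancer cells and VCaP cells overexpressing ERα, which were not used here.

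Chemokine genes can be grouped by the signals known to drive them. Cxcl9, Cxcl10 and Ccl5 are classical targets of interferon signalling, in which STAT and IRF factors act through interferon-stimulated response elements (ISREs) and GAS elements. Cxcl1, Cxcl5, Ccl2 and Ccl7 are classical targets of NF-κB, the factor activated by TNF, IL-1 and microbial products. Cxcl16 and Cx3cl1 are made as membrane-anchored proteins with a mucin stalk, from which a soluble form is shed. Cxcl12 is the homeostatic chemokine of stromal cells and holds haematopoietic cells in their niche. The grouping is not exclusive, because Cxcl10, Ccl5 and Ccl2 respond to both kinds of signal. Neat1 is the long non-coding RNA on which paraspeckles, a kind of nuclear body, are built.

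The stretches of sequence just before the start sites are shown for 4 of these genes, because they span the largest difference (Cxcl10), its neighbour at far lower levels (Cxcl9), an NF-κB-driven gene (Cxcl1) and the gene that differed in the other direction (Cxcl12). They are the 250 bases upstream of the annotated start (RefSeq, GRCm38.p6), written 5′ to 3′ on the strand of the gene. Capitals mark matches on either strand to GAAANNGAA (the ISRE core), TTCNNNGAA (the GAS element) or the NF-κB consensus.
Cxcl10 (chr5:92348890-92349139, minus strand): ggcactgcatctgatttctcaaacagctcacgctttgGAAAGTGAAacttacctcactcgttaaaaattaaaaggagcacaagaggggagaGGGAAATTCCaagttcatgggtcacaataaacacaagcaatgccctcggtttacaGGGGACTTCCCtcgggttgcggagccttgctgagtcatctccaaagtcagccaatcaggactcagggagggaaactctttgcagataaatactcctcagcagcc
Cxcl9 (chr5:92328080-92328329, minus strand): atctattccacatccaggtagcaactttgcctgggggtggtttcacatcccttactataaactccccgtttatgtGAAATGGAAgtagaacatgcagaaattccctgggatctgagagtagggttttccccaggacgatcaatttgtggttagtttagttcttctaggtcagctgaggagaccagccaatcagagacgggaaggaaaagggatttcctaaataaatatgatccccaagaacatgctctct
Cxcl1 (chr5:90890995-90891244, plus strand): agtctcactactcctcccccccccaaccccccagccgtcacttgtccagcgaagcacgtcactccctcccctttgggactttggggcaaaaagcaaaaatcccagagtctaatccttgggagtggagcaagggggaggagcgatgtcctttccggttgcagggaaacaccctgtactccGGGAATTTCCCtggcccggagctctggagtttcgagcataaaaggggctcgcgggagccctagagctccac
Cxcl12 (chr6:117168285-117168534, plus strand): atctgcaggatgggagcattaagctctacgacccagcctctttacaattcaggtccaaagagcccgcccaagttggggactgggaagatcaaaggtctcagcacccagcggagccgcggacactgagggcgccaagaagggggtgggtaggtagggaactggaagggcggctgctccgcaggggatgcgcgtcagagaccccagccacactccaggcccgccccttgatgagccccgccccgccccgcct

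RefSeq promoters of 300 bases, 250 before to 50 after the start, matched 5 of the 10 genes, the fifth being Cx3cl1. The Cxcl10 promoter held both kinds of match. GAAAGTGAA lay 213 to 205 bases before the start, and the NF-κB consensus was matched by GGGAAATTCC at 159 to 150 and by the overlapping GGGGACTTCC and GGGACTTCCC between 104 and 94 bases before it. Cxcl9 held GAAATGGAA at 175 to 167 bases before the start, and Cxcl1 held overlapping NF-κB matches, GGGAATTTCC and GGAATTTCCC, between 71 and 61 bases before it. The windows of Cxcl12 and Cx3cl1 held none of the 3 motifs. Among all 32851 promoters of this length, 8.56% held GAAANNGAA, 8.30% TTCNNNGAA and 8.46% the NF-κB consensus. A match describes the letters of the window and does not show that a factor was bound there.

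Neat1 itself had 29.5 RPKM in WT and 2.01 RPKM in KO, which gives a log2 ratio of -3.34 and is what the labels of the libraries say. Fibroblast markers were abundant in both libraries, with sums over 8 genes of 5712 RPKM in WT and 5910.4 RPKM in KO. Of the 8, 2 had a log2 ratio above 1, Pdgfra (4.18 and 13.8 RPKM) and Dcn (19.8 and 64.0 RPKM). This compares with 0.977% of all entries and 1.99% of those with at least 1 RPKM in at least 1 library. The libraries were alike in breadth, with 11233 entries of at least 1 RPKM in WT and 11118 in KO, and the 10888 entries that reached 1 RPKM in both had a median log2 ratio of -0.06. They differed in the sex of the embryos as well as in genotype. The X-inactivation transcript Xist had 28.6 RPKM in WT and 0.050 RPKM in KO, and the Y-linked gene Ddx3y had 0.0174 RPKM in WT and 4.18 RPKM in KO. With 1 library per genotype, the genotype cannot be told apart from the sex, the embryo or the culture, no difference could be set against a spread between replicates, and no P-values are given.

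Log2 ratios below are log2((KO + 1)/(WT + 1)) of the RPKM values, and the added 1 understates the change of genes with low values. A difference in bulk RNA can be one of more expressing cells or of more RNA per cell, which cannot be told apart. Of the 10 chemokines, 9 were higher in KO and 1, Cxcl12, was lower. 6 of the 10 had a log2 ratio above 2, against 0.223% of all 23329 entries, and 7 had one above 1, against 0.977% of all entries. 1 of the 10 had a log2 ratio below -1, against 0.334%. With 1 added, entries below 1 RPKM in both libraries cannot pass 1 or -1. Among the 11463 entries of at least 1 RPKM in at least 1 library, the shares were 0.454%, 1.99% and 0.68%. Since this contrast chose the genes, nothing is read from these shares. The median log2 ratio of the 10 genes was 2.42, and that of all entries was 0.

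**Figure D1:**
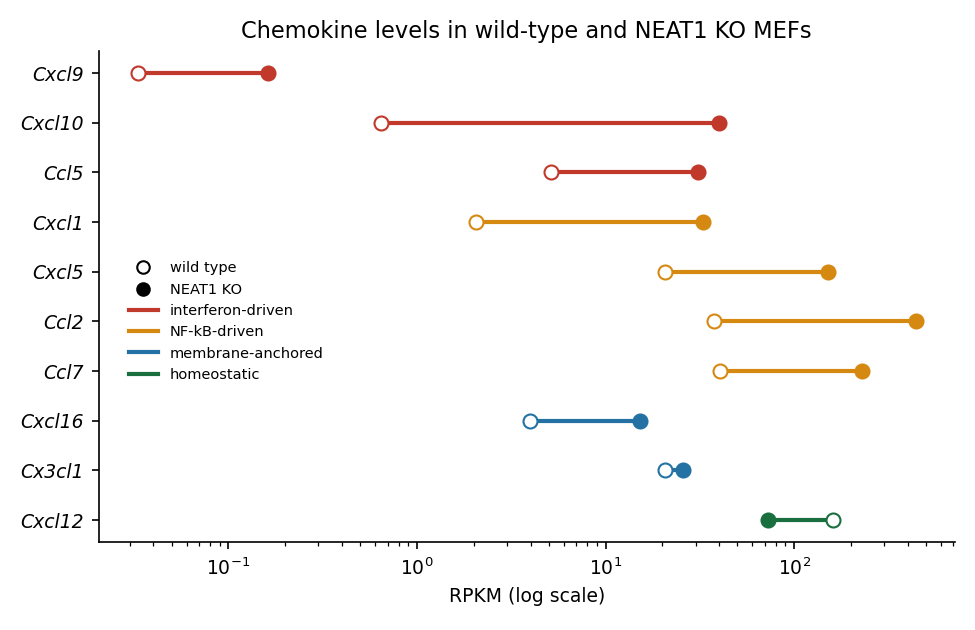
RPKM of the 10 chemokine genes on a log axis, with an open circle for the WT library and a filled circle for the NEAT1 KO library (1 library each, no error bars). The filled circle lies to the right for every gene but Cxcl12, which went from 161 RPKM in WT to 72.5 RPKM in KO.

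Cxcl10 encodes a ligand of the receptor CXCR3, found on activated T and NK cells. It had 0.648 RPKM in WT and 40.1 RPKM in KO. The KO value was 61.9 times the WT value, and the log2 ratio of 4.64 ranked 1 of all 23329 entries. With 0.1 in place of the added 1 the log2 ratio of Cxcl10 was 5.75 and no longer the highest. That of the Y-linked gene Eif2s3y, listed at 0 in WT and at 6.30 RPKM in KO, was then above it. The entry lies on chromosome 5 (92346638 to 92348889, 4 exons, minus strand). The entry Art3 overlaps its span but was listed at 0 in WT and had 0.0215 RPKM in KO.

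Ccl5, also known as RANTES, which draws T cells and monocytes, had 5.13 RPKM in WT and 30.9 RPKM in KO. This was 6.03 times the WT value, with a log2 ratio of 2.38 and rank 31. Cxcl9, the second CXCR3 ligand of the group, had 0.0330 RPKM in WT and 0.162 RPKM in KO. Its KO value was 4.93 times the WT value, yet the log2 ratio was 0.17 with 1 added to the values and 0.98 with 0.1 added. At these levels the difference rests on few reads, as the low values of the files show. Among low entries with a single annotated transcript, RPKM multiplied by transcript length clustered at steps, such that 1 read was worth 0.0319 RPKM in WT and 0.0338 RPKM in KO for a transcript of 1 kb. This would correspond to about 31400000 and 29600000 reads. Of the 2079 and 2057 low entries, 49.4% and 51.4% lay within 0.05 steps of a multiple of 0.5 steps, against 20% if values were spread evenly. The step was fitted to these same values, so these shares do not test the estimate. On this estimate Cxcl9 stood on about 2.99 reads in WT and 13.9 in KO, and Cxcl10 on about 22.2 and 1299.7. The third CXCR3 ligand, Cxcl11, was listed at 0 in WT and had 0.0208 RPKM in KO. The 3 CXCR3 ligands therefore stood at very different levels in KO, with Cxcl10 far above 1 RPKM and Cxcl9 and Cxcl11 below it.

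Of the NF-κB-driven genes, Ccl2, Ccl7 and Cxcl5 had the highest RPKM values in KO among the 10 chemokines. Ccl2, also known as MCP-1 and the main ligand of CCR2 on monocytes, had 37.5 RPKM in WT and 442 RPKM in KO. This was 11.8 times the WT value, with a log2 ratio of 3.52 and rank 8. Ccl7, which shares the receptor CCR2 and lies 10.1 kb from Ccl2 on chromosome 11, had 40.5 RPKM in WT and 229 RPKM in KO, 5.65 times the WT value. In WT the RPKM value of Ccl7 was slightly above that of Ccl2, whereas in KO that of Ccl2 was the higher of the pair.

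Cxcl1 and Cxcl5 encode CXC chemokines with an ELR motif, which draw neutrophils through CXCR2. Cxcl1 had 2.05 RPKM in WT and 32.7 RPKM in KO, 16 times the WT value, with a log2 ratio of 3.47 and rank 9. Cxcl5 had 20.6 RPKM in WT and 151 RPKM in KO, 7.35 times the WT value, with a log2 ratio of 2.82. The files pair this mouse gene with human CXCL6 as its counterpart. The longest exact run that transcripts of Cxcl1 share with those of Cxcl2 or Cxcl3 is 23 bases, as it is for Ccl2 and Ccl7, whereas Cxcl2 and Cxcl3 share 110 bases, so that reads could be divided between these last entries.

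The groups did not separate by the size of the difference. The log2 ratios of the 4 NF-κB-driven genes ran from 2.47 to 3.52, and those of the 3 interferon-driven genes ran from 0.17 to 4.64. Summed RPKM was 5.81 in WT and 71.2 in KO for the interferon-driven genes, 12.2 times the WT sum, and 101 and 855 for the NF-κB-driven genes, 8.49 times the WT sum. The interferon-driven group held both the largest and the smallest log2 ratio among the 7 genes, and its sum was set by Cxcl10 and Ccl5. The smallest was that of Cxcl9, which had less than 1 RPKM in both libraries, where the added 1 shrinks the ratio. With 0.1 added it was 0.98, and the KO value of Cxcl9 was 4.93 times the WT value.

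**Figure D2:**
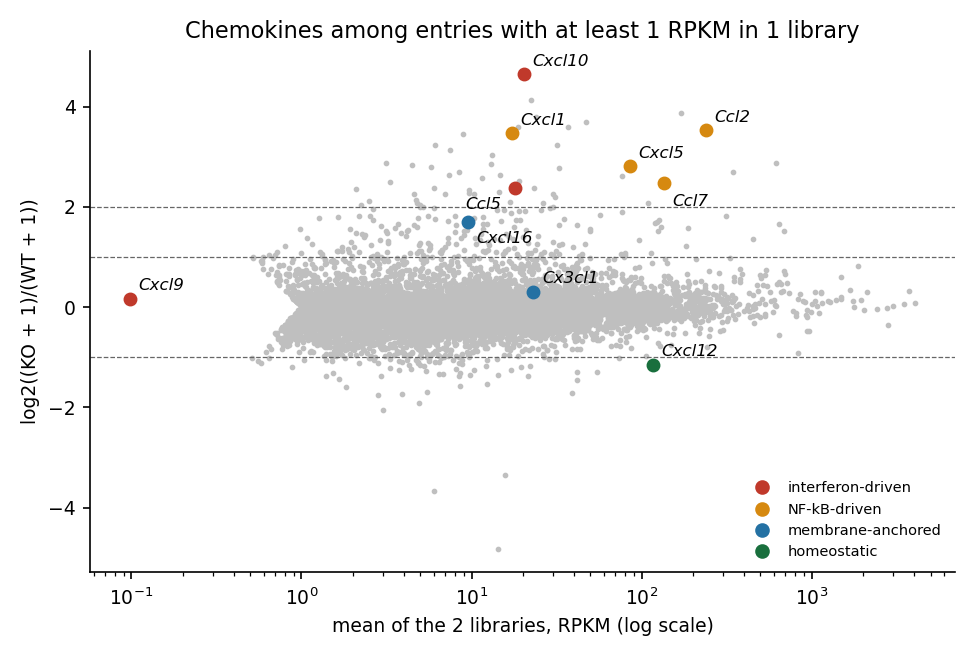
Log2 ratio of KO to WT against the mean RPKM of both libraries (log axis), with grey points for the 11463 entries of at least 1 RPKM in at least 1 library and coloured points for the 10 chemokines, also Cxcl9, which is below that level. Dashed lines mark log2 ratios of 2, 1 and -1. Cxcl10 lies above every other point, Ccl2, Cxcl5 and Ccl7 lie above 2 at higher means, and Cxcl12 lies just below -1.

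The pair of membrane-anchored chemokines differed unequally. Cxcl16, the ligand of CXCR6 and a scavenger receptor for oxidized lipoprotein, had 3.98 RPKM in WT and 15.2 RPKM in KO, 3.82 times the WT value, with a log2 ratio of 1.70 and rank 85. Its entry is overlapped by Zmynd15, which had 0.447 RPKM in WT and 1.797 RPKM in KO. No strand is stated for these libraries, so reads from overlapping genes on opposite strands may not have been told apart. Cx3cl1, or fractalkine, the ligand of CX3CR1 on monocytes and microglia, had 20.6 RPKM in WT and 25.7 RPKM in KO. Its log2 ratio of 0.31 was the nearest to 0 among the 9 members that reached 1 RPKM in at least 1 library, and it is not past any of the thresholds. The proteases that shed these proteins, ADAM10 and ADAM17, were in neither direction past a threshold at the RNA level, with log2 ratios of -0.49 for Adam10 and 0.11 for Adam17.

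Cxcl12 had 161 RPKM in WT and 72.5 RPKM in KO, so that the WT value was 2.23 times the KO value and the log2 ratio was -1.14. It was the only one of the 10 genes that was lower in KO. It ranked 292 by level among all entries in WT and 836 in KO. Of the receptors that bind it, Cxcr4 had 0.439 RPKM in WT and 0.482 RPKM in KO. Cxcr7, now called Ackr3, a scavenging receptor of Cxcl12, had 14.8 RPKM in WT and 28.2 RPKM in KO (log2 ratio 0.88). The ligand and this receptor thus differed in opposite directions.

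The makeup of chemokine RNA differed as well. Over the 41 chemokine entries of the files (the 10 genes and 31 others), summed RPKM was 366 in WT and 1297 in KO. Cxcl12 held 44.1% of this sum in WT and 5.59% in KO, and went from the first to the fifth place. Ccl2 held 10.2% in WT and 34.1% in KO, where it was the first. Ccl7 held 11.1% and 17.6%, and Cxcl5 5.62% and 11.7%. Cxcl10 had the place 20 in WT and 7 in KO. The places of genes with near-equal values, such as Cxcl5 and Cx3cl1 in WT (20.59 and 20.56 RPKM), cannot be ordered without replicates.

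**Figure D3:**
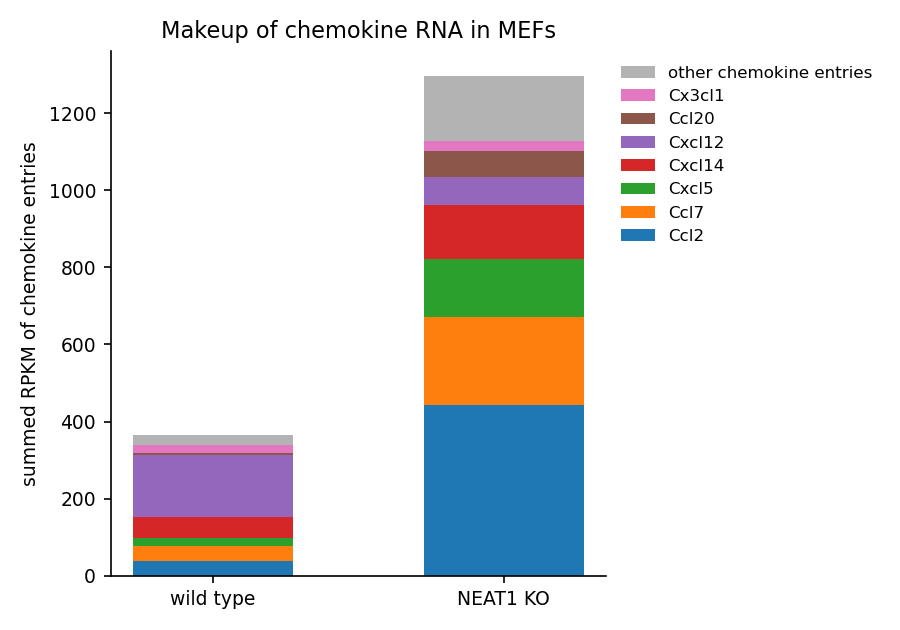
Summed RPKM of the 41 chemokine entries in each library as stacked bars, 1 library per genotype, with a colour for each gene that holds at least 4% of the sum in either library. Cxcl12 is the largest segment in WT and Ccl2 the largest in KO.

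Of the 31 other chemokine entries, 11 reached 1 RPKM in at least 1 library and 11 were listed at 0 in both. 4 had a log2 ratio above 2, 5 had one above 1 and 0 had one below -1, against 0.223%, 0.977% and 0.334% of all entries. With 0.1 added in place of 1, 10 were above 1 and 1 was below -1. Over all 23329 entries, 500 were then above 1 and 540 below -1. Ccl20, the ligand of CCR6, had 4.75 RPKM in WT and 68.7 RPKM in KO (log2 ratio 3.60). Cxcl2, a further CXCR2 ligand, had 0.667 RPKM in WT and 17.1 RPKM in KO (log2 ratio 3.44). Ccl8, a monocyte chemokine, went from 1.28 to 10.8 RPKM, and Cxcl3 from 1.35 to 8.66 RPKM. Cxcl14, a chemokine of many epithelial and stromal tissues, had 54.3 RPKM in WT and 139 RPKM in KO (log2 ratio 1.34). Cxcl2 and Cxcl3 lie in the same cluster as Cxcl1 and Cxcl5.

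Most of the 10 genes lie in clusters of chemokine genes, which allowed each to be set beside its neighbours. In the CXC cluster of chromosome 5 that runs from Cxcl5 to Cxcl2, 7 chemokine entries lie within 144.6 kb. Of these, 4 had a log2 ratio above 1, against 0.977% of all entries, and Cxcl5 and Cxcl1 are among the 10 chosen genes. Cxcl5, Cxcl3, Cxcl1 and Cxcl2 were those 4, and with 0.1 added Pf4 also passed 1, at 1.21. Ppbp and Cxcl15, which lie between them, were lower in KO, with 2.86 and 1.14 RPKM in WT and 1.59 and 0.193 RPKM in KO. Their log2 ratios were -0.58 and -0.84 with 1 added, and -0.81 and -2.08 with 0.1 added. The clustered genes therefore did not differ as 1 block.

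Around Cxcl10, its neighbours Cxcl9 and Cxcl11 start 25.3 kb to one side and 12.9 kb to the other and had log2 ratios of 0.17 and 0.03. These ratios were 0.98 and 0.27 with 0.1 added, on values below 1 RPKM in both libraries. Of the 12 non-chemokine entries that start within 300 kb of Cxcl10, 1 had a log2 ratio above 1, against 0.977% of all entries. This was U90926, a non-coding transcript, with 10.3 RPKM in WT and 51.2 RPKM in KO, named here after its value was seen. In the CC cluster of chromosome 11 that starts with Ccl2, the entries of Ccl2, Ccl7 and Ccl8 were above 1, Ccl11 and Ccl12 had log2 ratios of 0.24 and 0.25, and Ccl1 was listed at 0 in both libraries. With 0.1 added, Ccl12 passed 1, at 1.52, on values of 0 in WT and 0.187 RPKM in KO. With 1 added, Ccl5 was the only one of the 5 chemokine entries of its cluster with a log2 ratio above 1, against 0.977% of all entries. The others, Ccl9, Ccl6, Ccl3 and Ccl4, ran from 0.27 to 0.72. With 0.1 added, Ccl6, Ccl3 and Ccl4 also passed 1, at 1.12, 1.84 and 2.91, and Ccl9 was at 0.72.

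**Figure D4:**
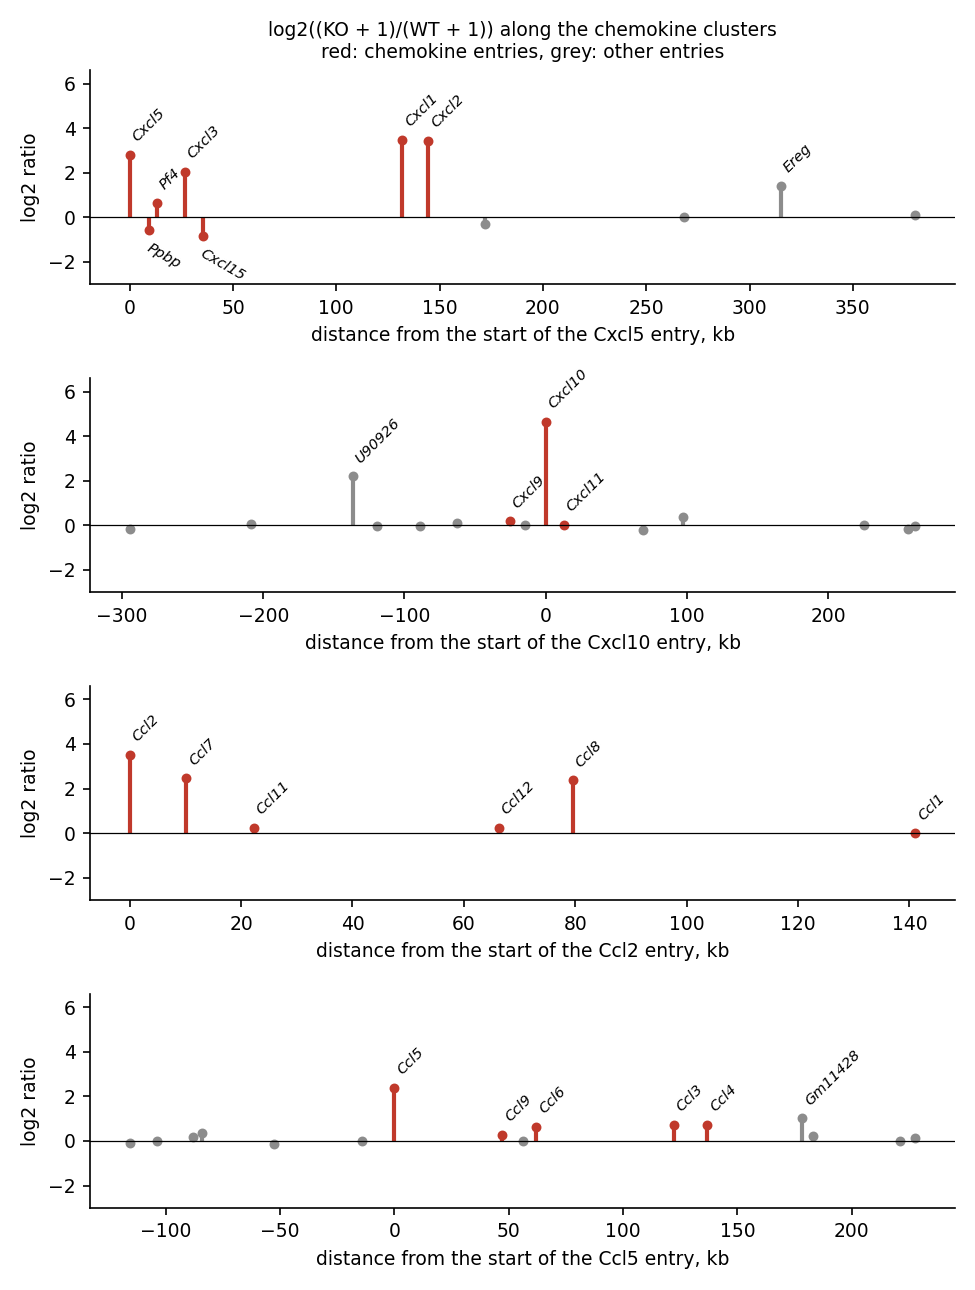
Log2 ratio of KO to WT for the entries around Cxcl5, Cxcl10, Ccl2 and Ccl5, drawn at the distance in kb from the start of that entry in the direction of rising coordinates (red, chemokine entries; grey, other entries). Genes with high ratios, such as Cxcl10 at 4.64, stand beside chemokine genes near or below 0, such as Cxcl9, Cxcl11, Ppbp and Cxcl15.

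The mRNAs of inducible cytokines often carry AU-rich elements in their 3′ untranslated region, which shorten their half-life. A single annotated transcript was found for 9 of the 10 genes, all but Cxcl12. Their 3′ untranslated regions held a median of 2 copies of ATTTA, against 1 over 15004 transcripts. Cxcl1 held 7 copies in 592 bases and Cxcl5 held 5 in 1111 bases. Cxcl10 held 2, Ccl2 held 1, and Ccl5 held 0. The longer form TATTTAT was present in 3 of the 9, Cxcl1, Cxcl5 and Cx3cl1, and in 24.4% of all transcripts. Genes with high ratios thus stood at both ends of this count.

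Few of the receptors through which these chemokines act had appreciable RNA in the MEFs. Of 23 receptor entries, 2 reached 1 RPKM in at least 1 library, and 0 were past a log2 ratio of 1 or -1, against 0.977% and 0.334% of all entries. With 1 added, entries below 1 RPKM in both libraries cannot pass 1 or -1. With 0.1 added the counts were 0 as well. The 2 that reached 1 RPKM were Cxcr7, given above, and Cxcr6, the receptor of Cxcl16, with 2.04 RPKM in WT and 1.04 RPKM in KO. Ccr2, the receptor of Ccl2 and Ccl7, was listed at 0 in both libraries, and Cxcr2 and Cxcr3 had at most 0.0105 RPKM in either library. Among the proteases known to trim or shed chemokines, Mmp9 had 0.936 RPKM in WT and 8.25 RPKM in KO (log2 ratio 2.26), and the far more abundant Mmp2 had 217 and 351 RPKM. Dpp4, which trims Cxcl10 and Cxcl12, had at most 0.00535 RPKM.

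Genes of the interferon and NF-κB pathways, both components and induced targets, were also compared. Of 19 interferon-pathway entries, 2 had a log2 ratio above 2, 4 had one above 1 and 0 had one below -1, against the same shares of all entries (0.223%, 0.977% and 0.334%). Irf7, the interferon-induced regulatory factor, had 5.24 RPKM in WT and 58.1 RPKM in KO. Stat2 went from 5.75 to 27.8 RPKM and Irf9 from 10.5 to 29.5 RPKM. Both encode factors that act at ISREs. Socs3, a feedback inhibitor of cytokine receptors, had a log2 ratio of 1.33, and Irf1, an interferon-induced factor, one of 0.66. The interferon receptor genes Ifnar1, Ifnar2, Ifngr1 and Ifngr2 had log2 ratios from 0.21 to 0.45. Those of the kinase genes Jak1, Jak2 and Tyk2 ran from 0.07 to 0.36, and that of Irf3 was 0.005. The ligands were at or near 0: Ifng was listed at 0 in both libraries, Ifnb1 was listed at 0 in WT and had 0.0758 RPKM in KO, and Ifna4 had 0.0248 RPKM in WT and was listed at 0 in KO.

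Of 27 NF-κB-pathway entries, 2 had a log2 ratio above 2, 8 had one above 1 and 0 had one below -1, against 0.223%, 0.977% and 0.334% of all entries. Of the 27, 23 reached 1 RPKM in at least 1 library, and among all such entries the shares were 0.454%, 1.99% and 0.68%. Both pathway lists were written with earlier results of these data known. Il6, the inflammatory cytokine, had 2.09 RPKM in WT and 24.4 RPKM in KO. Lif, a cytokine of the same family, went from 7.63 to 57.9 RPKM, and the adhesion molecule Icam1 from 5.24 to 23.0 RPKM. The NF-κB inhibitor Nfkbia and its relative Nfkbiz, both induced by NF-κB, had log2 ratios of 1.90 and 1.92. Among the genes of NF-κB subunits, the log2 ratios were 1.15 for Nfkb1, 0.90 for Relb, 0.72 for Nfkb2, 0.26 for Rel and 0.23 for Rela. The upstream components Ikbkb, Chuk, Ikbkg and Tnfrsf1a had log2 ratios of 0.03, -0.34, -0.30 and 0.10. The IL-1 receptor gene Il1r1 had 4.91 RPKM in WT and 10.8 RPKM in KO (log2 ratio 0.99). Of the upstream cytokines, Il1a had 0.0909 RPKM in WT and 1.34 RPKM in KO, with a log2 ratio of 1.10. Tnf had 0.115 RPKM in WT and 0.229 RPKM in KO, and Il1b was listed at 0 in WT and had 0.101 RPKM in KO. With 0.1 added in place of 1, the counts above 2 and above 1 in this list were 6 and 13, while those over all entries went from 52 to 118 and from 228 to 500. The median log2 ratio over list members of at least 1 RPKM in 1 library was 0.90 for the NF-κB list and 0.41 for the interferon list, against -0.06 for all such entries.

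**Figure D5:**
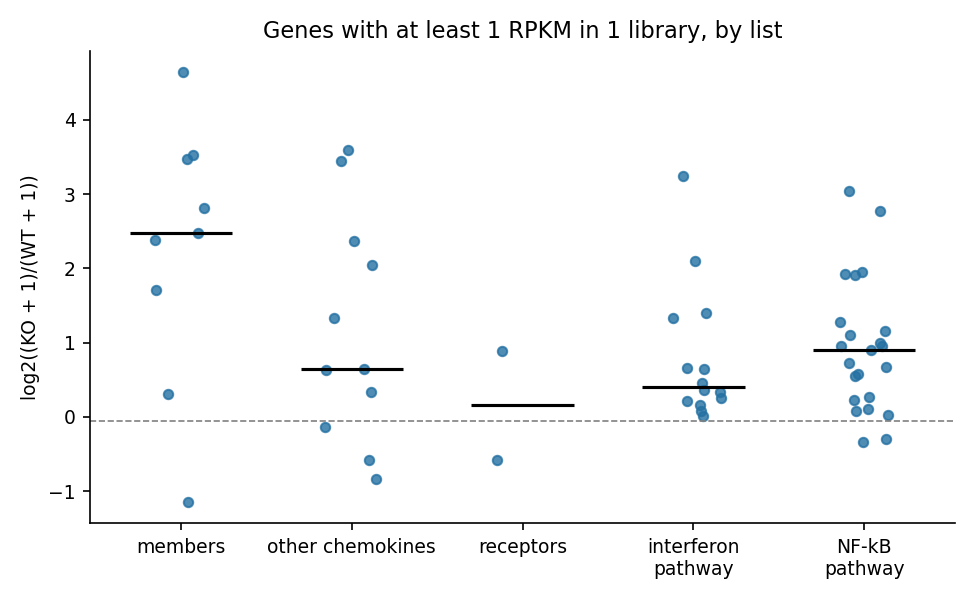
Log2 ratio of KO to WT for each gene with at least 1 RPKM in at least 1 library, by list, with a black bar at each list's median and a dashed line at the median of entries expressed in both libraries. The medians are 2.47 for the members, 0.64 for the other chemokines, 0.41 for the interferon pathway and 0.90 for the NF-κB pathway, and the receptor list holds 2 genes.

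The entries nearest in log2 ratio were looked up only for Cxcl10 and Ccl5. For Cxcl10 they were Ifit3 (1.53 to 43.2 RPKM, 4.13) and Isg15 (20.8 to 319 RPKM, 3.88), both interferon-stimulated genes. Because Cxcl10 ranked 1, these could only be the entries of ranks 2 and 3. They lay 0.51 and 0.76 from it in log2 ratio, so their place here does not measure likeness to Cxcl10. For Ccl5 they were Zc3h12a (6.89 to 39.8 RPKM, 2.37), which encodes an RNase that degrades inflammatory mRNAs, and Ccl8 (2.37). With only 2 libraries a shared ratio is a weak measure of likeness.

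Chemokines are also made by macrophages, and some leukocyte genes were higher in KO as well. Of 12 leukocyte marker entries, 10 were higher in KO and 0 lower, against 7033 higher and 10070 lower of all 23329 entries. Only 4 of the 12 reached 1 RPKM in at least 1 library, and several of the others rest on few reads. The summed RPKM of the 12 was 19.7 in WT and 49.6 in KO, 2.52 times the WT sum. Lyz2 accounted for most of it, with 13.9 RPKM in WT and 34.7 RPKM in KO. Cd68 had 2.79 and 7.26 RPKM, Cd14 1.67 and 4.73 RPKM and Emr1, the gene of F4/80, 0.482 and 1.37 RPKM. Csf1r had 0.521 and 0.775 RPKM. Ptprc, the pan-leukocyte gene of CD45, had 0.0449 and 0.0813 RPKM, and the T-cell genes Cd3e and Cd3d were listed at 0 in both. For the 10 chemokines, Cxcl12 included, summed RPKM was 292 in WT and 1039 in KO, 3.56 times the WT sum. For the 9 without Cxcl12 it was 131 in WT and 967 in KO, 7.38 times the WT sum. Endothelial and epithelial markers were near or below 1 RPKM in both libraries, with sums of 1.12 and 0.558 RPKM over 4 endothelial entries and of 1.09 and 0.677 RPKM over 5 epithelial entries, in WT and KO. The part of leukocytes in the chemokine differences was not tested.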

How the data were processed

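RNA of WT and NEAT1 KO MEFs was sequenced from poly-A libraries, 1 per genotype, with groups taken from the sample labels. The authors deposited RPKM values, which scale the read count of an entry to its length and to the mapped total, and state no scaling between the libraries. The submitters' processing notes name CASAVA 1.8 and the build mm10. An aligner and a counter are not given in the sources used here.

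Ratios of KO to WT were taken on the log2 scale after 1 RPKM was added to both values, over all 23329 entries, with thresholds of 2, 1 and -1. No test was made. Depth is not stated, and it was estimated from steps among values below 0.2 RPKM for a transcript of 1 kb. No interval or floor was derived from it. Transcripts were taken from GENCODE M21 (GRCm38) by RefSeq identifier, for 18274 entries with a single transcript. The start and end of 7 of the 10 chemokine entries lay within 1 base of RefSeq GRCm38.p6.

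The members and the gene lists were chosen with earlier results of these data known. Some genes of the receptor, interferon and leukocyte lists are not reported here and were left out of the counts. The text names the members, up to 5 genes per list with at least 1 RPKM in 1 library and the largest absolute log2 ratio, the 2 entries nearest to Cxcl10 and to Ccl5 in log2 ratio, Neat1 and the defining cell type markers. Other genes, such as cluster neighbours, pathway components and genes at low values, were named after their values were seen. As alternatives, 0.1 RPKM was added in place of 1, entries under 1 RPKM in both libraries were dropped, ratios were centred on their median over expressed entries, the libraries were quantile normalized, and symbols were reduced to 1 entry. The scripts were tested on simulated data. The work was done in Python 3.11.15 with pandas 2.3.3 and numpy 2.4.6, and figures were drawn with matplotlib 3.10.9.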

Additional observations from a re-analysis of the deposited data

How the results depend on the processing

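The directions of the 10 chemokines and their numbers above 2 (6), above 1 (7) and below -1 (1) were obtained under each alternative that was run. For some alternatives this was fixed beforehand. Each symbol had 1 entry, so reducing symbols to 1 entry changed nothing. The minimum of 1 RPKM changes no ratio, and with 1 added an entry below it cannot pass 1 or -1. Centring only subtracted the median of -0.06 from each ratio. Counts were taken as unchanged within 1.5 times and log2 ratios within 0.58. Only the pseudocount of 0.1 moved results beyond this. Under it the log2 ratio was 0.98 for Cxcl9 and 5.75 for Cxcl10, the entries above 2, above 1 and below -1 numbered 118, 500 and 540, the other chemokines above 1 and below -1 numbered 10 and 1, and the NF-κB-pathway genes above 2 and above 1 numbered 6 and 13. Centring and quantile normalization left Cxcl12 between -1.20 and -1.08. Cxcl9 has no value under the minimum of 1 RPKM. No replicate could be left out and no paired analysis was possible because each genotype has 1 library. The number of reads, about 2.99 for Cxcl9 in WT, limits what can be said of it.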
